A study of Mus musculus with 6 samples.

Results

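Mast cells are granulated immune cells of the mucosa and of connective tissue, and the proteases stored in their granules tell their 2 main types apart in the mouse. Mucosal mast cells, which lie within and just below the epithelium, hold the chymases encoded by Mcpt1 and Mcpt2. Connective tissue mast cells, which lie deeper and around vessels and muscle, hold the chymases Mcpt4 and Cma1, the tryptases Tpsb2 and Tpsab1 and the carboxypeptidase Cpa3. Mast cells of both types need the receptor tyrosine kinase Kit for survival, and they are armed by the high-affinity IgE receptor, of which Fcer1a encodes the ligand-binding chain and Ms4a2 the signal-amplifying beta chain. These 10 genes were followed here in the lining of the acid-secreting part of the stomach, and all array probes annotated to them were taken, 17 of 45281 probes on the array.

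The samples were fundic gastric mucosa of C57Bl/6Ncr mice aged 3 months, 3 from wild type animals and 3 from animals lacking Lasp1, which encodes an actin-binding protein abundant in parietal cells. Total RNA was measured on Illumina bead arrays, 1 array per sample. No other allele or treatment was given, and neither the design of the Lasp1 deletion nor the number of mice per sample was given in the sources used here. Nothing in the labels says that the arrays come from different mice, so the p-values reflect variation among samples that may be technical.

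Values are probe intensities that the authors scaled to a median of 1000 on every array, without subtracting background. The brightest probe of a Y-linked gene served as the background mark of each array, because all samples carried bright Xist RNA, as female tissue does. This mark lay between 1061 and 1212. The brightest Lasp1 probe gave 270957, 275068 and 177315 in wild type replicates 1 to 3, against 88521, 111002 and 89823 in knockout replicates 1 to 3. It was thus lower on each knockout array, with signal remaining. Its log2 difference was -1.30 (SE 0.21). Even this probe did not pass the limma test over all kept probes (adjusted p = 0.994, unadjusted p = 0.000412). A member that did not pass this test is therefore not shown to be unchanged. Wild type replicate 3 stood apart from the other arrays through pancreatic acinar transcripts: the summed intensity of 9 such genes was 5062720 there, 414914 on knockout replicate 3 and 106349 to 238278 on the other 4 arrays. Smooth muscle genes were highest on knockout replicate 1 (summed intensity of 8 genes 286886, against 46553 to 126088 elsewhere), and squamous genes on knockout replicate 1 and wild type replicate 2 (summed intensity of 8 genes 1016940 and 593912, at most 30148 elsewhere). The part of these differences in the results below was not tested, but values without single arrays are given for the member genes. In bulk tissue, a change in the number of mast cells and a change in RNA per mast cell cannot be told apart.

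The Mcpt1, Mcpt4 and Cma1 genes lie in 1 protease cluster on chromosome 14. The stretches just before their starts are shown because the results turn on which of these related genes gave signal. The sequences are those of RefSeq for GRCm38.p6, the reference of strain C57BL/6J, and each ends at the base before the annotated start. Capitals mark matches to the motif read by GATA factors, a family in which Gata2 is needed for mast cell development. The motif was searched on both strands as AGATAA, as AGATAG, as TGATAA and as TGATAG.
Mcpt1, chr14:56017844-56017963, plus strand: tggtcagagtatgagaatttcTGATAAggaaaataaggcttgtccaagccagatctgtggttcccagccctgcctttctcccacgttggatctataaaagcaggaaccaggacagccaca
Mcpt4, chr14:56062311-56062430, minus strand: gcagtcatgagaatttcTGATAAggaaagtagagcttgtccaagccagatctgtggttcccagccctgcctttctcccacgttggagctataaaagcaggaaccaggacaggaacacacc
Cma1, chr14:55944676-55944795, minus strand: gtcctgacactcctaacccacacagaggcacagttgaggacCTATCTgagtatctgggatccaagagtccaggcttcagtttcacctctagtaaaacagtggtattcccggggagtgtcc
Over the 250 bases before the start, Mcpt1 and Mcpt4 were 81.5% identical (207 of 254 aligned columns), while Mcpt1 and Cma1 were 50.9% identical. TGATAA began 99 bases before the start of Mcpt1 and 103 bases before that of Mcpt4. In Cma1 the match was on the other strand, 79 bases before the start. Of the 7 member genes with a sequence (none was available for Mcpt2, Tpsb2 and Tpsab1), 6 held a match within 250 bases of the start. Kit, with more than 1 listed start, held none. Counted by promoter and not by gene, 26.5% of 32851 promoters of the same length held a match. The matches of Mcpt1 and Mcpt4 lie in like sequence and are not independent. A match of letters is a description and does not show that a factor binds.

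Among the mucosal type proteases, Mcpt1 gave clear signal and Mcpt2 did not. Mcpt1, a beta-chymase released into the epithelium and blood in worm infection, gave intensities of 2716, 3084 and 2171 in wild type replicates 1 to 3, against 5468, 12948 and 5684 in knockout replicates 1 to 3. Each knockout array lay above each wild type array, and knockout replicate 2 carried more than 2 times the signal of either other knockout array. Mean intensity (± SD, n = 3 each) was 2657 ± 459 for the wild type and 8033 ± 4257 for the knockout. The log2 difference, knockout minus wild type, was 1.49 (SE 0.34), a 2.81-fold higher level. It did not pass the limma test over all 22640 probes kept (adjusted p = 0.994, unadjusted p = 0.00359), and an exact two-sided permutation test gave p = 0.1, the smallest that 3 against 3 arrays allow. Without knockout replicate 2 the difference was 1.08, and without wild type replicate 3 it was 1.35. Mcpt2 encodes an enzymatically weak chymase of the same cells. Its probe stayed between 732 and 874 on all 6 arrays, below the background mark on each, so it was left out by the filter on dim probes and no fold is given.

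**Figure D1:**
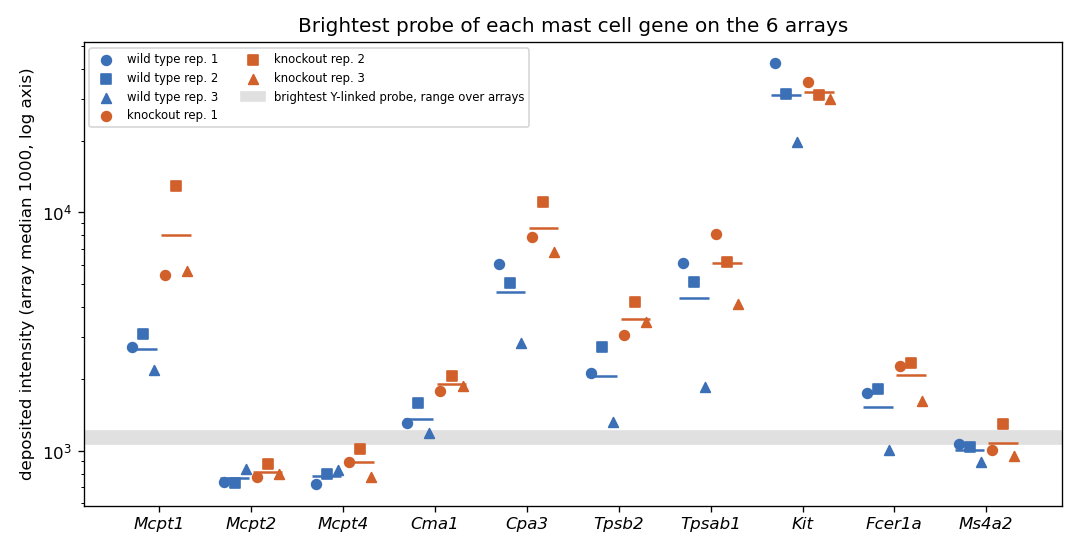
Intensity of the brightest probe of each of the 10 genes on the 6 arrays, on a log axis, with the mean of each group of 3 arrays as a line and the range of the brightest Y-linked probe over the arrays as a grey band. The Mcpt1, Cma1, Cpa3 and Tpsb2 points of the knockout arrays lie above all wild type points, and Mcpt2 and Mcpt4 lie below the band. Wild type replicate 3 is the lowest array for all 8 genes that passed the filter. The share of all kept probes that were lowest there is not given. That array also had the smallest share of all probes above its background mark (35.8%).

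The connective tissue type proteases Cma1, Tpsb2 and Cpa3 read higher on every knockout array than on any wild type array, by smaller amounts than Mcpt1. Cpa3, the carboxypeptidase that mast cells store bound to heparin, gave 6073, 5031 and 2823 in the wild type, against 7871, 11031 and 6802 in the knockout. Its log2 difference was 0.93 (SE 0.32), 1.90-fold, and 0.60 without wild type replicate 3. The other Cpa3 probes differed by 0.88 and, for a dimmer one, by 0.37. Tpsb2, the tetrameric tryptase mMCP-6, gave 2106, 2713 and 1321 in the wild type, against 3041, 4208 and 3463 in the knockout. Its log2 difference was 0.85 (SE 0.27), 1.80-fold, and 0.57 without wild type replicate 3. A second Tpsb2 probe read 698 to 993, below the background mark on every array, so the values of this gene rest on 1 probe. Cma1, the alpha-chymase mMCP-5, gave 1307, 1585 and 1185 in the wild type, against 1783, 2053 and 1870 in the knockout. Its log2 difference was 0.49 (SE 0.15), 1.41-fold, and its second probe differed by 0.38. The signal of Cma1 lay close to background, above the mark on 2 of 3 wild type and 3 of 3 knockout arrays, so its fold is understated. With 500 subtracted from all values before the log, the differences were 0.73 for Cma1, 1.09 for Tpsb2, 1.02 for Cpa3 and 1.69 for Mcpt1. None of the 3 passed over all probes (limma adjusted p = 0.994, unadjusted p = 0.0123 for Cma1, 0.0175 for Tpsb2 and 0.0223 for Cpa3, exact permutation p = 0.1 for each).

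Mcpt4, the chymase mMCP-4 of connective tissue mast cells, gave 720, 795 and 828 in the wild type, against 895, 1019 and 776 in the knockout. All 6 values lay below the background mark, and the probe was not kept. The highest was again on knockout replicate 2. Tpsab1 encodes the tryptase mMCP-7 in other strains, while the reference gene table (GRCm38.p6, strain C57BL/6J) lists it as a transcribed pseudogene. Its probe was nevertheless bright, at 6146, 5102 and 1856 in the wild type, against 8082, 6156 and 4104 in the knockout. The groups overlapped, and the log2 difference of 0.60 (SE 0.47, limma adjusted p = 0.994) was 0.07 without wild type replicate 3. Tpsab1 and Tpsb2 are close relatives, as are the chymases of the chromosome 14 cluster. Probe sequences were not analysed here, so signal shared between such relatives cannot be told apart.

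For the receptors Kit, Fcer1a and Ms4a2 the groups overlapped in the brightest probe of each. Kit gave 42138, 31354 and 19762 in the wild type, against 35311, 31075 and 29910 in the knockout, which overlapped. Its log2 difference was 0.11 (SE 0.27, 95% interval -0.53 to 0.75), and it turned to -0.18 without wild type replicate 3 and to -0.08 after quantile normalization. Its second kept probe differed by 0.06. Kit is also made by the interstitial cells of Cajal, the pacemaker cells of the gut wall, so its level is not that of mast cells alone. Of the markers listed for those cells, Ano1 read 4276 to 8389 and Etv1 1834 to 2996 over the 6 arrays, with log2 differences of 0.28 and 0.31 and overlapping groups. Gja1 ran from 9623 to 106409, highest on knockout replicate 1 (log2 0.56, overlapping groups), and Prkcq was not kept. Fcer1a gave 1748, 1816 and 1004 in the wild type, against 2258, 2332 and 1622 in the knockout. The groups overlapped for this probe (log2 0.47, SE 0.27, 95% interval -0.16 to 1.11) and did not for a dimmer Fcer1a probe (0.33, SE 0.16), and the brighter one differed by 0.20 without wild type replicate 3. Both Fcer1a probes lay above the background mark on 2 of 3 wild type and 3 of 3 knockout arrays, and below it on wild type replicate 3. Ms4a2 stayed near background, at 898 to 1067 on the wild type and 947 to 1288 on the knockout arrays. It exceeded the background mark on knockout replicate 2 alone, so its log2 difference of 0.10 (SE 0.16) is one between values mostly at background.

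Across the list, 8 of the 10 genes and 13 of the 17 probes passed the filter on dim values. None of the 8 passed the limma test at an adjusted p under 0.05, as against 0.00883% of all kept probes, and 4 of the 8 had an unadjusted p under 0.05 and higher values in the knockout, as against 1.63% of all kept probes. Members were chosen with earlier results of these data known, so these counts and those below are no test of the list. The 4 genes (Mcpt1, Cma1, Cpa3 and Tpsb2) also correlated with each other over the arrays, at r of 0.87 to 0.97, and are not separate results. A fit with array weights called Mcpt1 (adjusted p = 0.0318) and Cpa3 (adjusted p = 0.0357). In that fit 1816 probes passed in all, and wild type replicate 2 had a weight of 38.8 against at most 1.60 for any other array. The range of adjusted p over all alternatives was 0.0318 to 1 for Mcpt1 and 0.0357 to 1 for Cpa3. The groups did not overlap for 4 of the 8 genes (Mcpt1, Cma1, Cpa3 and Tpsb2), all higher in the knockout, as against 6.17% of all kept probes. All 8 differences were above 0, where 76.9% of all kept probes were. The median difference of the 8 genes was 0.55 log2 and that of all kept probes was 0.10. Without wild type replicate 3, these medians were 0.30 and -0.0039, and 7 of 8 genes were above 0, against 48.9% of all kept probes. With fewer arrays, groups separate more often over the whole array. The 4 genes were the members with separate groups without wild type replicate 1 (24.4% of all kept probes), 2 (10.1%) or 3 (7.63%) and without knockout replicate 1 (17.4%) or 2 (8.52%), and Tpsab1 and Fcer1a joined them without knockout replicate 3 (12.3%). Without knockout replicate 2, 1 of 7 kept genes (Mcpt1) had an unadjusted p under 0.05 and higher values in the knockout, against 0.398% of all kept probes.

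**Figure D2:**
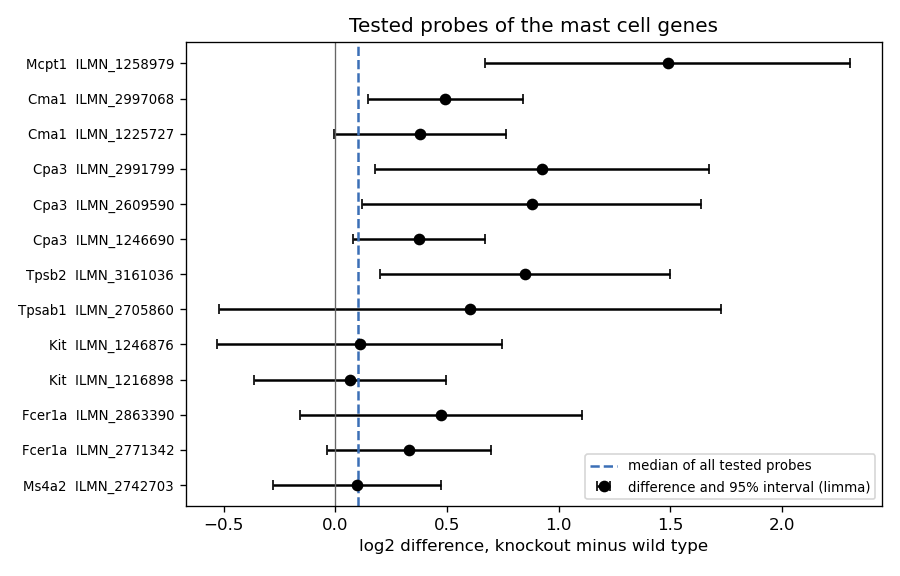
Log2 difference, knockout minus wild type, of the 13 probes that passed the filter, with the 95% interval from limma and the median of all kept probes (0.10) as a dashed line. The intervals of the single Mcpt1 probe, 3 Cpa3 probes, 1 Cma1 probe and 1 Tpsb2 probe lie above 0, before any adjustment for the number of probes tested.

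The 2 protease types were compared on each array after centring every gene on its mean over the 6 arrays, because the brightness of different probes cannot be compared directly. Of the mucosal type, Mcpt1 alone passed the filter, and the connective tissue type is the mean of Cma1, Tpsb2 and Cpa3. Mcpt1 stood at -0.70, -0.51 and -1.02 log2 on wild type replicates 1 to 3 and at 0.31, 1.56 and 0.37 on knockout replicates 1 to 3. The connective tissue type stood at -0.21, -0.08 and -0.85 in the wild type, against 0.24, 0.63 and 0.26 in the knockout. Both types were therefore lowest on wild type replicate 3 and highest on knockout replicate 2. The gap between them, mucosal minus connective tissue type, was -0.49, -0.43 and -0.17 in the wild type, against 0.07, 0.92 and 0.11 in the knockout. Taken with its sign, the gap was thus higher on each knockout array than on any wild type array.

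By genotype, the gap averaged -0.37 ± 0.17 over the wild type and 0.37 ± 0.48 over the knockout arrays (± SD, n = 3 each), a shift of 0.73 log2. Centring makes both means equal in size and opposite in sign, so their signs do not show which type is more abundant. The shift is a description without a test, since the genes were chosen with earlier results in view and the mucosal side rests on 1 probe. The shift was 0.45 without knockout replicate 2 and 0.83 without wild type replicate 3. It was 0.82 when Cpa3, which both types of mast cell can hold, was left out, and 0.77 when Tpsab1 was added. It was 0.17 when the dim genes Mcpt2 and Mcpt4 were counted, whose probes lay at background.

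**Figure D3:**
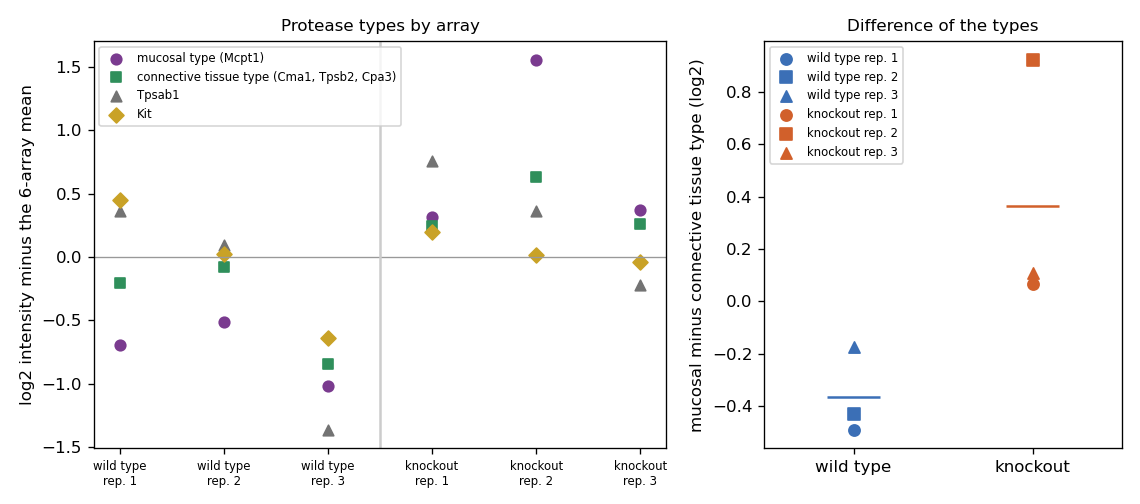
Left, log2 intensity of Mcpt1, of the connective tissue type mean, of Tpsab1 and of Kit on each array, centred on the 6-array mean. Right, the gap between Mcpt1 and the connective tissue type mean by genotype, with group means as lines. The gap lies between -0.49 and -0.17 on the wild type and between 0.07 and 0.92 on the knockout arrays, with knockout replicate 2 farthest up.

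Arrays were also split by the number in their titles, since that number was seen to separate samples: wild type replicates 1 and 2 and knockout replicate 1 were numbered 1 to 3, and the others 4 to 6. The labels do not say what the number means. With this set as a block, no member passed (limma adjusted p of 0.399 or more), and the log2 differences were 1.45 for Mcpt1, 1.06 for Cpa3, 0.94 for Tpsb2 and 0.52 for Cma1. Inside the first set (numbers 1 to 3) and inside the second (4 to 6), Mcpt1 differed by 0.92 and 1.98, Cpa3 by 0.51 and 1.62, Tpsb2 by 0.35 and 1.53, and Cma1 by 0.31 and 0.73. In each set 1 genotype has a single array, so these values have no test. Tpsab1 was the member most different between the sets, at -1.14 log2 for numbers 4 to 6 against 1 to 3, and did not pass (limma adjusted p = 0.0631). No member passed between the sets, where 164 of all kept probes (0.724%) did. The split was chosen after values were seen, so this count cannot be set against the 2 probes that passed between the genotypes. Kit (-0.55) and Fcer1a (-0.52) had the next largest differences between sets, also not past the threshold, while Mcpt1 (0.12) and Cma1 (-0.07) differed little in size.

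**Figure D4:**
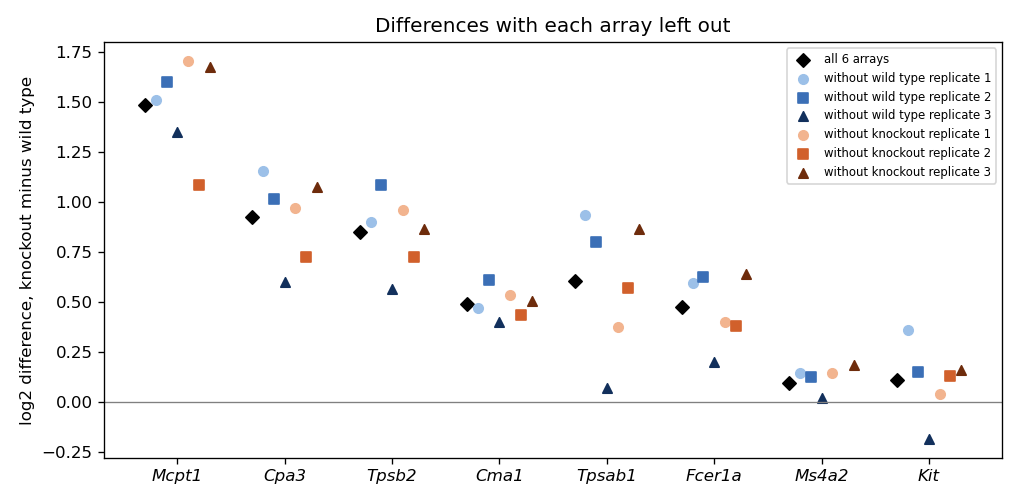
Log2 difference, knockout minus wild type, for the 8 genes that passed the filter, with all 6 arrays and with each array left out in turn (Ms4a2 failed the filter without knockout replicate 2). Leaving out wild type replicate 3 lowers all 8 values and takes Kit to -0.18, and leaving out knockout replicate 2 lowers Mcpt1 to 1.08.

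Most neighbours of the member chymases gave no signal above background. In the gene table, 15 protein-coding genes run from Cma1 to Gzmb in the cluster on chromosome 14, all with a probe. Cma2, a chymase gene between Cma1 and Mcpt1, read 1080, 1108 and 974 on the wild type arrays, below the background mark, and 1472, 2010 and 1306 on the knockout arrays, above it. Its knockout level was at least 1.35-fold higher, taking the lowest signal above the mark as the wild type level, and the adjusted p of limma was 0.994. Mcpt8 and Mcpt9, proteases of basophils and of uterine mast cells, stayed at 756 to 952, and Ctsg and the granzyme genes of the cluster showed no signal past the mark on any knockout array apart from Gzmn on 1 of 3. The probes above the mark on all 3 knockout arrays were thus those of Cma1, Cma2 and Mcpt1, which follow each other in the gene order.

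Of the other granule genes, Srgn, the proteoglycan core that binds the proteases, read 1112 to 1175 on the wild type and 1187 to 1479 on the knockout arrays (log2 0.24, SE 0.13), above the background mark on 1 of 3 and 3 of 3 arrays. Ndst2, which sulfates heparin in mast cells, differed by 0.22 (SE 0.29). Hdc, the histamine-forming enzyme, went the other way, at 28996 to 37676 in wild type and 23835 to 29957 in knockout mucosa (log2 -0.29, SE 0.15). In the stomach Hdc and Slc18a2 are also made by enterochromaffin-like cells, whose 5 listed markers had a median difference of -0.01. In the list of 12 granule and neighbour genes, 5 were kept, 4 higher and 1 lower, and none passed.

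Signalling, growth and lipid mediator genes of mast cells were examined as lists, and no member of any passed the limma test. Of the IgE receptor signalling genes, 8 of 8 kept were higher, with a median of 0.27. Fcer1g, the gamma chain shared by Fc receptors, differed by 0.37 (SE 0.16) and the phospholipase Plcg2 by 0.38 (SE 0.16). The kinase Btk differed by 0.31 (SE 0.14), with its signal above the background mark on 1 of 3 wild type arrays. Of the growth and homing genes, 8 of 10 kept were higher, with a median of 0.15. Il33, an alarmin that activates mast cells, gave 6044, 13467 and 17840 in the wild type, against 9993, 35691 and 31236 in the knockout (log2 0.98, SE 0.58), with overlapping groups. Kitl, the ligand of Kit, differed by 0.16, above the mark on 2 of 3 arrays of each genotype. The integrin chain Itgb7, used in homing of mast cell progenitors, read 916 to 1085, below the mark on all 6 arrays. Itgb7 averaged 951 in the wild type, under the filter level of 991, and 1053 in the knockout. It was thus kept through its knockout values and is among the 8 counted as higher. Of the transcription factors, 5 of 5 kept were higher (median 0.26), with Gata2 at 0.48 (SE 0.40) and Mitf, above the mark on 1 of 3 wild type arrays, at 0.20 (SE 0.15). Of the eicosanoid genes, 4 of 4 kept were higher (median 0.43), with the leukotriene genes Alox5ap at 0.56 (SE 0.37), Alox5 at 0.48 (SE 0.31) and Ltc4s at 0.37 (SE 0.29). These medians stand beside the 0.10 of all kept probes. The counts of higher genes, here and for the markers below, stand beside the 76.9% of all kept probes that were higher. Without wild type replicate 3, the values for all kept probes were -0.0039 and 48.9%. The centred mean of every list here was lowest on that array. For the eicosanoid genes it was 0.29, -0.15 and -0.73 on the wild type and 0.37, 0.28 and -0.06 on the knockout arrays. For the transcription factors it was 0.26, -0.13 and -0.54, against 0.26, 0.21 and -0.06. List medians without that array are not given.

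Markers of other immune cells were read beside these values. General leukocyte genes were higher for 8 of 8 kept, with a median of 0.28 and a centred mean of 0.08, -0.18 and -0.37 on the wild type and 0.17, 0.34 and -0.04 on the knockout arrays. Like the proteases, they were lowest on wild type replicate 3 and highest on knockout replicate 2. Their summed intensity ran from 27956 to 42081 on the wild type and from 39539 to 56829 on the knockout arrays. Among the defining markers, Ptprc stayed at 825 to 1088, below the background mark on every array. Macrophage genes were higher for 6 of 6 kept (median 0.20), the only T cell gene kept differed by -0.06, and plasma cell genes by -0.04 at the median of 2. The eosinophil genes Prg2, Epx, Siglecf, Ccr3 and Il5ra and the basophil genes Mcpt8 and Prss34 were not kept. The remaining basophil gene, Cd200r3, read 881 to 1016 on the wild type and 1116 to 1195 on the knockout arrays, and passed the background mark on 1 of the 6 arrays. Its mean was 967 in the wild type, under the filter level of 991, and 1147 in the knockout, so it was kept through its knockout values. Fibroblast genes had a median of 0.13 (7 of 8 higher) and smooth muscle genes one of 0.67 (7 of 7 higher), the latter with the highest sum on knockout replicate 1. The smooth muscle genes had a centred mean of 0.21, -0.28 and -0.83 on the wild type and 1.74, -0.21 and -0.63 on the knockout arrays. Only knockout replicate 1 thus lay above the wild type range. The connective tissue type proteases stood at 0.24, 0.63 and 0.26 on knockout replicates 1 to 3. The kept genes of the labelled tissue were bright on all arrays, apart from the parietal cell gene Kcnq1. It read 877 to 1142, below the background mark on each array. Median differences were 0.05 for parietal cell, 0.04 for chief cell and 0.11 for surface mucous cell genes. The part of the leukocyte and muscle genes in the protease differences was not tested.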

How the data were processed

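Deposited probe intensities of 6 Illumina arrays were used. The authors scaled each array to a median of 1000, judged from the deposited values, and subtracted no background. The scanner and its software were not given in the sources used here. Probes were named from the platform annotation and matched to GRCm38.p6 by gene identifier: 34885 of 45281 probes had 1 symbol, 18 several and 10378 none. Intensities were floored at 16 (none was as low), log2 transformed and kept where the mean over 6 arrays exceeded that of the median probe (22640 probes, mean above 991). Knockout and wild type were compared with limma 3.58.1 in R 4.3.3 (lmFit, eBayes), two-sided, with Benjamini-Hochberg adjustment over all kept probes at 0.05. The code was tested on simulated data. A gene is given by its brightest probe. The number of arrays limits the precision.

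Members and gene lists were chosen with earlier results of these data known. The text names all members, Lasp1, up to 4 genes of smallest p per list, the markers of other cells whose values stand beside a result, and the 5 genes of highest Pearson correlation with Mcpt1 and with the connective tissue type mean. The set differences by title number and the comparison of both tryptases were chosen after values were seen. The values relative to Kit were not among the planned comparisons. Alternatives comprised other normalizations, background steps, filters, variance models, array weights, blocks and left-out arrays, plus counts without each array, added after seeing the data. Promoters were aligned with Biopython 1.88. Figures were drawn with matplotlib 3.10.9.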

Additional observations from a re-analysis of the deposited data

How the results depend on the processing

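Mcpt1, Cma1, Cpa3, Tpsb2, Tpsab1, Fcer1a and Ms4a2 kept their direction under every alternative that could be computed for them. Kit reversed after quantile normalization (-0.079), cyclic loess (-0.075), normexp with quantile normalization (-0.078), with array weights (-0.0085), without wild type replicate 3 (-0.18, up to 0.36 without other single arrays) and without the replicate 3 arrays of both genotypes (-0.13). The median of all kept probes reversed with cyclic loess (-6.04e-05) and without wild type replicate 3 (-0.0039, up to 0.20 without other single arrays). The 2 probes called over the whole array became 0 under the stricter filter, with the replicate number as a block and without either pair of arrays that shared foreign transcripts, 0 to 3 on leaving out single arrays, and 1816 with array weights, where 2 members passed. On leaving out single arrays, the median of the members ranged from 0.30 to 0.75 (0.24 with array weights, where Tpsab1 was 0.12 and Fcer1a 0.18) and the shift between protease types from 0.45 to 0.88. That shift was 0.17 when dim probes were not filtered out and when dim members were included. The cause of these changes was not tested. The replicate block left no member past the threshold (lowest adjusted p = 0.863). The deviations of same-numbered arrays correlated at 0.04, -0.30 and 0.53, and those of wild type replicate 2 with knockout replicate 1 at 0.55. Both 0.53 and 0.55 fell on arrays that shared foreign transcripts. These correlations therefore cannot decide whether the numbers pair the samples. Signal over background limits Mcpt2, Mcpt4 and Ms4a2, and on wild type replicate 3 also Cma1 and Fcer1a.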

Other observations

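The array patterns of the 2 tryptase probes differed. The centred Tpsab1 value minus that of Tpsb2 was 0.69, 0.05 and -0.37 log2 on wild type replicates 1 to 3 and 0.55, -0.31 and -0.61 on knockout replicates 1 to 3. The 3 positive values fell on the arrays numbered 1 to 3 in their titles and the 3 negative ones on those numbered 4 to 6. Over the 6 arrays, Tpsab1 correlated at r = 0.95 with Fcer1a, 0.89 with Kit and 0.71 with Tpsb2, while Cma1 correlated at 0.97 with Tpsb2. These correlations share the same arrays and their scaling and are descriptive.

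The genes whose array pattern was most like Mcpt1 were Ttll3, Lcorl, Med11, Isg15 and Pja1, with Pearson r of 0.989 to 0.999 over the 6 arrays. As an example, the interferon-induced Isg15 read 1254 to 1350 on the wild type and 1543 to 1845 on the knockout arrays. Most like the connective tissue type mean were Ppm1l, Brwd3, Inpp5a, Fdps and Gtf3c4, with r of 0.991 to 0.996. Fdps, an enzyme of cholesterol synthesis, read 21006 to 34984 on the wild type and 38790 to 49983 on the knockout arrays. With 6 arrays and 11868 named genes to choose from, correlations this high are picked extremes.

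Relative to Kit, Mcpt1 stood at -1.15, -0.54 and -0.38 log2 on the wild type arrays and at 0.12, 1.54 and 0.41 on the knockout arrays, after centring both genes. Cpa3 relative to Kit stood at -0.45, -0.30 and -0.47 and at 0.17, 0.85 and 0.20. For Mcpt1 and Cpa3 this measure was higher on each knockout array than on any wild type array. Wild type replicate 3 was no longer the lowest for Mcpt1. For Cma1 and Tpsb2 the groups overlapped in this measure. Cma1 stood above Kit on wild type replicate 3 (-0.43 against -0.64) and below it on knockout replicate 1 (0.16 against 0.20). Tpsb2 stood just above Kit on wild type replicate 2 (0.042 against 0.025) and on knockout replicate 1 (0.207 against 0.196).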
